A study of Mus musculus with 16 samples.

Results

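The replication-dependent histone genes encode the core histones H2A, H2B, H3 and H4 and the linker histone H1 that package new DNA. They were taken as the protein-coding genes of GENCODE M21 whose symbols begin with Hist1h, Hist2h, Hist3h or Hist4h, which gave 67 of 21938 genes. Of these, 54 lie in Hist1 on chromosome 13, 10 in Hist2 on chromosome 3, 2 in Hist3 on chromosome 11 and 1 in Hist4 on chromosome 6. By class there were 6 genes of H1, 18 of H2A, 18 of H2B, 12 of H3 and 13 of H4. The gene records were 312 to 37455 bp long with a median of 539 bp, and 52 were at most 1500 bp.

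The question was how RNA polymerase II (Pol II) and H2B carrying a single ubiquitin (H2Bub1) lie on these genes with and without ATXN7L3, the adaptor on which the H2B deubiquitylases USP22, USP27X and USP51 depend. ChIP-seq, the sequencing of DNA fragments that an antibody pulls down with a protein, was applied to embryonic stem cells (mESCs) and to embryonic fibroblasts (MEFs) of the mouse, each of the genotype Atxn7l3+/+ (WT) or Atxn7l3-/- (KO), all of the strain DBA/2 x C57BL/6. The mESCs had been derived from single E3.5 blastocysts and grown with LIF, PD0325901 and CHIR99021 but no other treatment, and the MEFs from single E10.5 embryos without head and gut, all from matings of heterozygous animals. Each of the 8 groups, 2 antibodies by 2 cell types by 2 genotypes, is 1 library, so no difference below could be set against replicates, and p-values are left out. The intervals printed cover counting over genes alone, and the read depth of the libraries is unknown. The cells were mixtures of cell cycle phases, so from these files more cells in S phase and more polymerase per S-phase gene cannot be told apart. The study also assayed cell cycle phases in both genotypes, and that assay is not used here.

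Genes of this kind have no introns in their main transcripts, are transcribed mostly in S phase inside nuclear histone locus bodies, and make mRNAs that end in a conserved stem-loop instead of a poly(A) tail. H2Bub1 is set by RNF20 and RNF40 behind elongating Pol II and is usually found over the bodies of transcribed genes. H2A and H2B genes often stand head to head and share the promoter between them.

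The libraries carried the marks of their cell types. A Pol II peak lay within 1000 bp of the transcription start site (TSS) of 3 of 3 mESC marker genes (Pou5f1, Sox2, Nanog) in both mESC libraries and of 0 of 3 in both MEF libraries. The 4 MEF marker genes (Col1a1, Col1a2, Thy1, Twist2) had one in both MEF libraries, 4 of 4, and in neither mESC library, 0 of 4. The Pol II lists of mESCs held 17074 (WT) and 11963 (KO) peaks and those of MEFs 45869 and 32232, and the H2Bub1 lists held 40979 and 48952 in mESCs and 19723 and 28856 in MEFs.

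The sequences in question are short, repeated and densely packed. RefSeq promoter windows (GRCm38.p6) matched 62 of the 67 members; Hist1h2bc, Hist1h3a, Hist1h3f, Hist2h2be and Hist2h4 had no entry. Motifs known from histone promoters were searched in the 250 bases before the RefSeq start on both strands, and none of them contains another. They were the TATA box with the letters TATAAA, the box CCAAT that NF-Y binds, the octamer ATTTGCAT that POU2F1 binds, and the H1 element AAACACA. The NF-Y box was found in 51 of 62 members against 33.8% of 32817 promoters, and in 18 of 18 H2A, 16 of 16 H2B and 6 of 6 H1 genes but 3 of 12 H4 genes. TATAAA was found in 29 of 62 members against 12.4% of promoters. ATTTGCAT was found in 7 of 18 H2A and 6 of 16 H2B promoters, in 0 of 28 of the other classes, and in 1.60% of all promoters. AAACACA was found in 5 of 6 H1 promoters and in 6.25% of all promoters. To show this architecture, the shared promoter of the H2A and H2B pair with the highest Pol II fold in WT mESCs, and the 150 bases before the start of the H1, H3 and H4 gene with the highest fold among those matched, are printed 5′ to 3′, with motif matches on either strand in capitals.
Hist1h2ag/Hist1h2bj, between the starts, chr13:22042950-22043197, plus strand, toward Hist1h2bj: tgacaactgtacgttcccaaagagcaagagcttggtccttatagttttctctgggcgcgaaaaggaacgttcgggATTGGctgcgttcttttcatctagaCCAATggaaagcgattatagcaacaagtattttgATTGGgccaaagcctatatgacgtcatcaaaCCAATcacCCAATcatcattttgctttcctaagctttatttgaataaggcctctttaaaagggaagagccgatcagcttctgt
Hist1h1c, chr13:23738657-23738806, plus strand: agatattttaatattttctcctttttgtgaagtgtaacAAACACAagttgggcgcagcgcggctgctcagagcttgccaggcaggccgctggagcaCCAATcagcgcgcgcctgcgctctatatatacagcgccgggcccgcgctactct
Hist1h3g, chr13:23535268-23535417, plus strand: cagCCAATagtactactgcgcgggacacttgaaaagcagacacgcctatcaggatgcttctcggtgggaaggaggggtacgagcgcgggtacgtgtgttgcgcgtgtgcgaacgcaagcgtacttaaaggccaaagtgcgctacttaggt
Hist1h4a, chr13:23761250-23761399, minus strand: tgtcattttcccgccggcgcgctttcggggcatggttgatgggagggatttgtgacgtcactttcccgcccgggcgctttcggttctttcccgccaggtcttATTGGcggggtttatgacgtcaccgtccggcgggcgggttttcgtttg

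The shared promoter of Hist1h2ag and Hist1h2bj holds 5 CCAAT boxes, 3 on the printed strand and 2 on the other. The promoter between the oocyte and testis variants Hist1h2aa and Hist1h2ba holds 4 CCAAT boxes, an octamer, a match to AAACACA on the opposite strand and a TATA box facing each gene, and is printed because these genes had the weakest Pol II of all members with a peak in mESCs. The promoter between Hist1h2ap and Hist1h2br is printed to show a limit of the assay. Its last 167 bases are, letter for letter, the whole stretch between the starts of Hist1h2ao and Hist1h2bq (chr13:21810200-21810366, minus strand), so a read from there fits more than 1 place.
Hist1h2aa/Hist1h2ba, between the starts, chr13:23934157-23934436, minus strand, toward Hist1h2ba: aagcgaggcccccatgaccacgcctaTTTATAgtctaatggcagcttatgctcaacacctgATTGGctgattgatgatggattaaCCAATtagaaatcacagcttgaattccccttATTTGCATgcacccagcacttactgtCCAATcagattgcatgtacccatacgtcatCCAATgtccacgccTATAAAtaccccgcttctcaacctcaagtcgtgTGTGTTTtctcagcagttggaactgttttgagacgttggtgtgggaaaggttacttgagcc
Hist1h2ap/Hist1h2br, between the starts, chr13:21833476-21833742, plus strand, toward Hist1h2br: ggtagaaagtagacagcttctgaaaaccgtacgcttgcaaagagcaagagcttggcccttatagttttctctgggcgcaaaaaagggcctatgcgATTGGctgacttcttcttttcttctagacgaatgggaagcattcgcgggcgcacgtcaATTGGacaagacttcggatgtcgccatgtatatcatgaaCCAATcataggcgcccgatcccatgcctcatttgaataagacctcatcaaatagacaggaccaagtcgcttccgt

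The 3′ stem-loop, which SLBP binds, was searched as 6 paired bases beginning GG around a loop of 4 beginning TT, within 120 bases after an annotated stop codon. It was found at 63 of 67 members and at 0.336% of 21752 protein-coding genes, and began 22 to 59 bases after the stop codon. It took 6 forms, of which 1 served 41 members of classes H1, H2A, H2B and H3, and 3 forms with other stem bases were seen at H4 genes. No such match was found at Hist2h2be, Hist1h2an, Hist1h3g and Hist1h4a. An example of each form, with the stem-loop in capitals, shows how little the members differ here.
Hist1h1c, chr13:23739507-23739532, plus strand, form of 41 members: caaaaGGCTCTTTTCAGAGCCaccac
Hist1h2bk, chr13:22036295-22036320, plus strand, form of 9 members: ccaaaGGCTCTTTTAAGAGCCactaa
Hist4h4, chr6:136803993-136804018, minus strand, form of 8 members: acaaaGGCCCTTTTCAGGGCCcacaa
Hist2h4, chr3:96262934-96262959, minus strand, form of 2 members: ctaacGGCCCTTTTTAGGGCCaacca
Hist1h4j, chr13:21735432-21735457, plus strand, form of 2 members: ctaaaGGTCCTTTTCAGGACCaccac
Hist2h2ac, chr3:96220413-96220438, minus strand, form of 1 member: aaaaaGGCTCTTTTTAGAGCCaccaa

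The reads were 50 bases long, so the share of 50-base words of each member's window that occur once in the genome was counted. A window here and below is the gene record with 1000 bp on either side. The median over members was 84.5%, but over the gene records alone it was 53.0%. The lowest shares belonged to the duplicated end of the first Hist1 block: 0% at Hist1h2bq and at Hist1h2br, 1.69% at Hist1h2ap, 2.06% at Hist1h2ao, 5.82% at Hist1h4m and 11.5% at Hist1h4n. Windows of neighbours also overlap, and the 67 windows form 34 separate stretches, of which 12 hold a single member and the largest holds 5. A peak that touches several windows is counted for each of them, so members of 1 stretch are not independent of each other.

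Pol II covered nearly all members in every library. A peak touched the window of 64 of 67 members in WT mESCs (95.5%, exact binomial 95% interval 87.5 to 99.1, against 43.9% of all protein-coding genes) and of 63 in KO mESCs (94.0%, 85.4 to 98.3, against 38.6%). In MEFs it was 62 members in WT (92.5%, 83.4 to 97.5, against 61.5%) and 61 in KO (91.0%, 81.5 to 96.6, against 57.4%). The same 61 members had a peak in all 4 libraries (Hist1h2ap only in its flanks), and 3 had none in any: Hist1h2ao, Hist1h2bq and Hist1h2br, whose windows hold 0 to 2.06% unique words. Of the 49 other protein-coding genes within the span of Hist1, 0 had Pol II in either genotype of mESCs, while the MEF libraries counted 5 (WT) and 4 (KO).

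The peaks were tall as well as frequent. The fold of a peak is its height over the background that the peak caller estimated for that library, and each window was given its highest. Over the members with a peak the fold in WT mESCs ran from 4.12 to 44.9 with a median of 17.2, and over all genes with a peak the median was 4.39. In KO mESCs it ran from 3.94 to 39.0 with a median of 15.0, against 4.54 over all genes. In WT MEFs the members ran from 3.66 to 40.0 with a median of 26.5, against 13.3. In KO MEFs they ran from 7.68 to 31 with a median of 18.1, against 11.7. The 4 ranges of the members overlap widely, and in each library the members' median was above that of all genes. Only 46 other genes reached the members' median in both genotypes of mESCs, and 646 in both genotypes of MEFs.

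**Figure D1:**
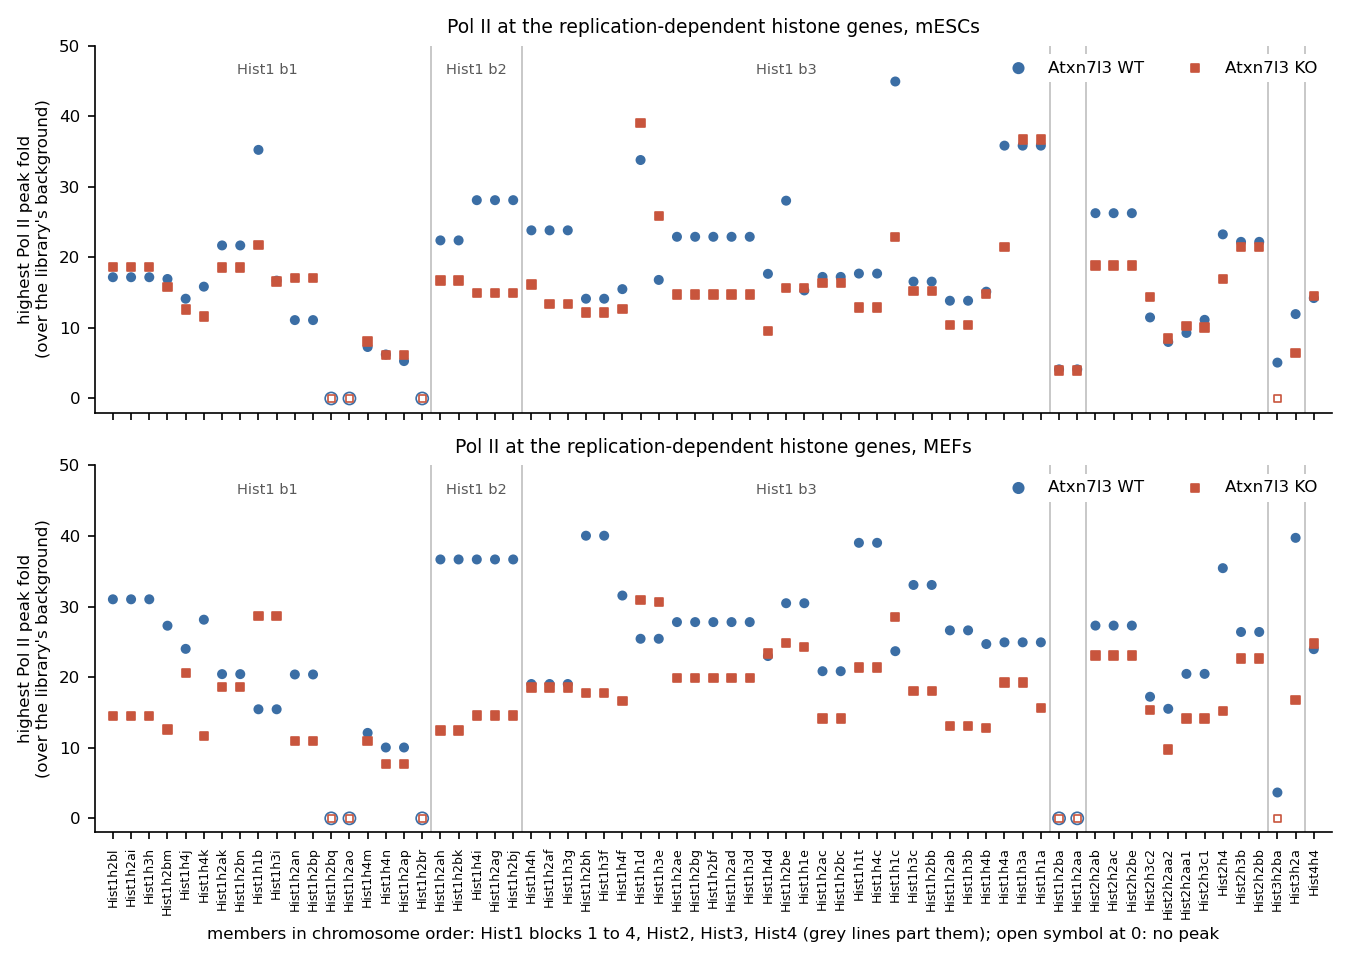
Highest Pol II peak fold (linear scale, over the background estimated for the same library) at each of the 67 members in genomic order within Hist1 to Hist4, WT as blue circles and KO as red squares, mESCs above and MEFs below. The mESC medians were 17.2 (WT) and 15.0 (KO), the MEF medians 26.5 and 18.1, members that share a peak show the same value, and open symbols at 0 mark members without a peak.

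A window can take its highest fold from a peak that lies over a neighbour and only reaches into its flank. This was so at 6 members in WT and 6 in KO mESCs, and at 3 in WT and 5 in KO MEFs. For the genes in the next sentences the fold is therefore that of the highest peak touching the gene record itself. Of the linker histone genes, which encode somatic H1 subtypes apart from the testis gene Hist1h1t, Hist1h1a, Hist1h1b, Hist1h1c and Hist1h1d were above the members' median of 17.2 in WT mESCs, and Hist1h1e and Hist1h1t were below it. Hist1h1c had 44.9 in WT mESCs, the top of that library, beside 22.9 in KO mESCs, and in MEFs it had 23.7 (WT) and 28.5 (KO). Hist1h1d had 33.8 (WT) and 39.0 (KO) in mESCs and 22.3 and 31 in MEFs, the top of both KO libraries. It was higher in KO in both cell types. Hist1h1b had 35.2 (WT) and 21.8 (KO) in mESCs and 15.4 and 15.5 in MEFs, so that it was lower in KO in mESCs and level in MEFs. Hist1h1a had 26.7 (WT) and 36.7 (KO) in mESCs, while the peak beside it, over the H4 gene Hist1h4a and the H3 gene Hist1h3a, had 35.8 (WT) and 21.4 (KO). These neighbouring peaks thus differed in opposite directions in mESCs. In MEFs Hist1h1a had 24.9 in WT, from a peak shared with Hist1h4a and Hist1h3a, and 15.6 in KO. Hist1h1e had 15.3 (WT) and 15.7 (KO) in mESCs and 30.5 and 24.3 in MEFs. Over the H1 genes with a peak on the record, 6 in each library but KO mESCs with 5, the mESC medians were 30.2 (WT) and 22.9 (KO) and the MEF medians 24.3 and 19.9. The mESC medians thus cover unlike sets of genes. Gene by gene, 2 of the 5 with a peak in both mESC genotypes were lower in KO and 3 higher, and the median log2 of KO over WT fold was 0.04. For MEFs 3 were lower and 3 higher, with a median of -0.16. The core histone classes had record medians of 15.8 (H4) to 19.4 (H2A and H2B) in WT mESCs and of 24.7 (H4) to 27.8 (H2B) in WT MEFs.

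In MEFs the highest WT folds were those of the H2B gene Hist1h2bh and the H3 gene Hist1h3f, which shared a peak of 40.0, and of Hist3h2a, an H2A gene, with 39.7. In KO MEFs the same 3 genes had 17.7, 17.7 and 16.7, and in mESCs the peak over Hist1h3f had 14.1 in WT and 12.2 in KO, while the peak on Hist1h2bh itself had 6.72 and 4.14. The values of KO MEFs were below those of WT MEFs at all 3.

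Pol II peaks at the members were wide. The 50 peaks that touched members in WT mESCs had a median width of 2092 bp, against 532 bp in the whole list, and the 51 in KO mESCs had 1529 against 495 bp. In MEFs the 46 peaks of WT had a median of 2605 against 661 bp and the 49 of KO 2131 against 666 bp. The widest was 11.3 kb in WT MEFs, and single peaks took in up to 5 members. The whole gene record lay inside its top peak at 42 of 64 members in WT mESCs, 38 of 63 in KO mESCs, 44 of 62 in WT MEFs and 40 of 61 in KO MEFs, while over all genes with a peak this share was 0.852%, 0.709%, 2.66% and 1.66%. At 2000 bp downstream of the TSS a Pol II peak, the member's own or a neighbour's, lay over 41.8% (WT) and 25.4% (KO) of members in mESCs and over 62.7% and 43.3% in MEFs. There 1.8% and 1.06% of all genes were inside a peak in mESCs and 10.3% and 7.44% in MEFs. The median member had 77.3% of its window inside Pol II peaks in WT and 64.2% in KO mESCs, and 90.8% and 79.3% in WT and KO MEFs.

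**Figure D2:**
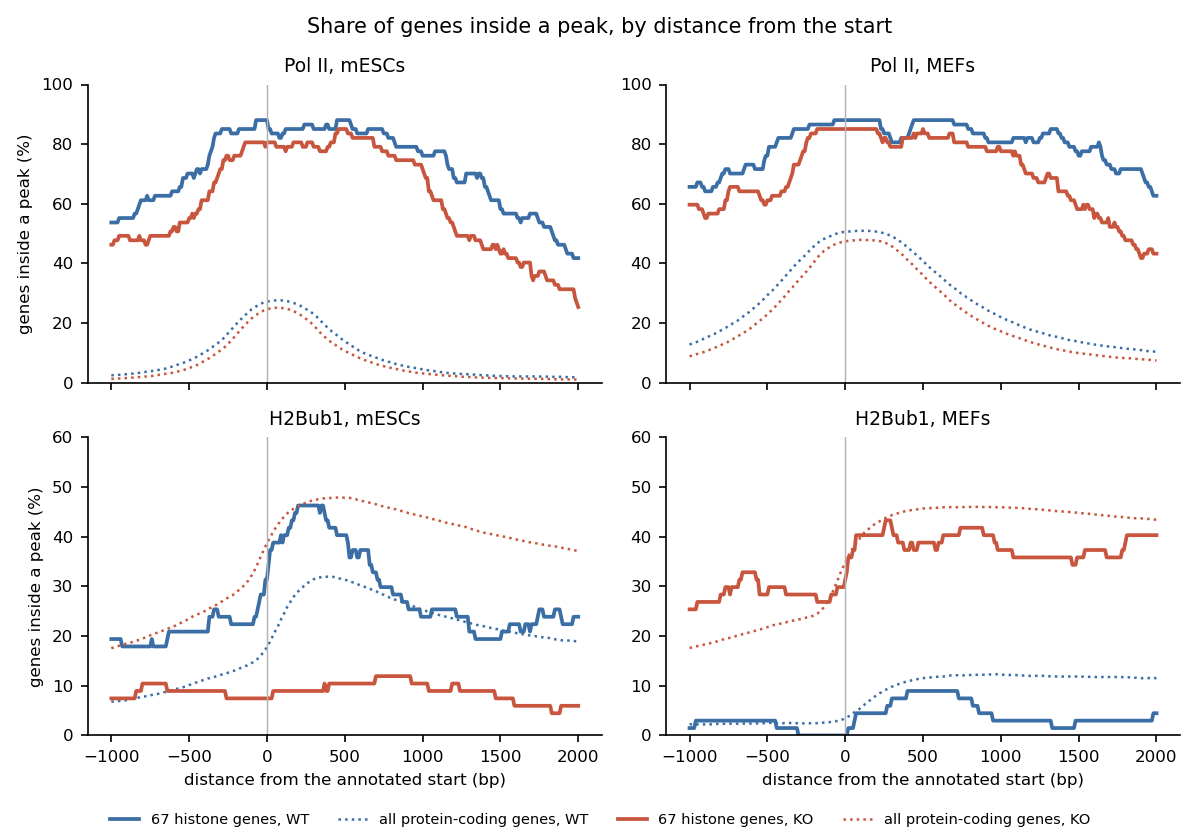
Share of genes inside a peak (%) against the distance from the annotated TSS (bp, negative upstream), for the 67 members (solid) and all 21938 protein-coding genes (dotted), WT in blue and KO in red. Pol II peaks, those of neighbours included, lie over most members up to 1000 bp and beyond, and the H2Bub1 summit of 46.3% in WT mESCs at 200 to 360 bp has no counterpart in KO mESCs, where the members stay at or below 11.9%.

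Between WT and KO, the window counts of Pol II differed by 1 member in each cell type, and the fold was lower in KO at most members. Hist3h2ba, an H2B gene of the small Hist3 cluster, was the 1 member with a peak in WT only in mESCs (background 10.1%) and again the 1 in MEFs (5.48%). Its fold was 5.08 in WT mESCs and 3.66 in WT MEFs. No member had Pol II in KO only, 0 in mESCs (4.83%) and 0 in MEFs (1.40%). These counts depend on the rule: a wide peak has 1 summit, and when the summit itself had to lie in the window, Pol II in KO only was counted at 8.96% of members in mESCs (5.02% of all genes) and 16.4% in MEFs (1.69%), and Pol II in WT only at 2.99% (10.1%) and 8.96% (5.57%).

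Of the 63 members with a peak in both genotypes of mESCs, 47 had a lower fold in KO (74.6%, against 51.3% of 7402 genes), and the log2 of KO over WT fold had a median of -0.21 (95% interval -0.45 to -0.07) against -0.01 over all genes. Among the members with at least 90% unique words that median was -0.46, and the interval treats members that share a peak as independent, which they are not. In MEFs 54 of 61 were lower in KO (88.5%, against 68.2% of 12281 genes), and the median log2 ratio was -0.48 (-0.87 to -0.37) against -0.23. Counted on the gene records alone, 45 of 60 members were lower in KO in mESCs, with a median log2 ratio of -0.26, and 53 of 60 in MEFs, with -0.54. Since each fold is scaled to the background estimated for its library, these ratios set no absolute level of Pol II. The 5 members of the second Hist1 block, which lay under 1 or 2 peaks per library, were all lower in KO in both cell types: Hist1h2ag and Hist1h2bj, the pair printed above, had 28.1 in WT and 15.0 in KO mESCs (log2 ratio -0.91) and 36.7 and 14.6 in MEFs (-1.33). The pair Hist1h2ah and Hist1h2bk of that block had 22.4 and 16.7 in mESCs (-0.42) and 36.7 and 12.4 in MEFs (-1.56). That was the largest difference of any window in MEFs; on the records alone Hist1h1t, described below, had a larger one.

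The other way, 16 members in mESCs and 7 in MEFs were higher in KO. In mESCs the largest log2 ratios above 0 were those of Hist1h3e (16.8 in WT, 25.8 in KO, 0.62) and of the pair Hist1h2an and Hist1h2bp (11.1 and 17.0, 0.62). In MEFs the largest on the gene records were those of the H3 gene Hist1h3i, with 15.4 in WT and 28.6 in KO (0.89), and of Hist1h1d (0.47). The WT peak at Hist1h3i ran over Hist1h1b as well, whereas KO had a separate peak on each. Hist1h2an and Hist1h2bp were lower in KO MEFs, 20.4 in WT and 11.0 in KO, and Hist1h3i had 16.7 and 16.6 in mESCs. Hist1h1c had the lowest log2 ratio of all windows in mESCs, -0.97, and a ratio of 0.27 in MEFs. On the records alone the H2A gene Hist1h2af was lower still in mESCs, with -2.33, while its window ratio was -0.83. A single WT peak of 23.8 ran over Hist1h4h, Hist1h2af and Hist1h3g, whereas KO had a separate peak of 4.73 on Hist1h2af. The ratio of -2.33 thus compares a peak shared with neighbours with a separate one.

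H2Bub1 went in opposite directions in the 2 cell types. In mESCs 44 of 67 members had an H2Bub1 peak in WT (65.7%, 53.1 to 76.8, against 55.1% of all genes) and 13 in KO (19.4%, 10.8 to 30.9, against 61.7%). The number with a peak was thus lower in KO at the members and higher in KO over all genes. In MEFs 8 members had a peak in WT (11.9%, 5.30 to 22.2, against 31.8%) and 41 in KO (61.2%, 48.5 to 72.9, against 54.2%), and here the members and all genes both counted more in KO. In mESCs 31 members had H2Bub1 in WT only (46.3%, background 2.87%) and 0 in KO only (9.45%). In MEFs 0 had it in WT only (0.283%) and 33 in KO only (49.3%, background 22.6%). Put the other way, 4.92% of the 630 genes with H2Bub1 in WT only in mESCs were members.

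The strength of the peaks counted bears on these values. With only peaks of -log10 q (the peak caller's p adjusted for multiple testing, larger for stronger peaks) of at least 3, 26.9% of members had H2Bub1 in WT and 1.49% in KO in mESCs (all genes 22.2% and 45%), and 0% and 29.9% in MEFs (5.87% and 49.1%), so that the members of KO MEFs were above all genes with every peak and below them with these. The covered share of the window, over every peak, had the same directions, although with the stricter peaks its members' median was 0% in each library. In mESCs it was lower in KO at 43 members (64.2%, background 9.12%) and higher in KO at 0 (background 55.1%), and its median was 16.2% (5.07 to 29.6) in WT and 0% in KO. Over all genes the mESC medians were 1.22% (WT) and 6.43% (KO). In MEFs it was higher in KO at 41 members (61.2%, background 53.9%) and lower at 0 (background 0.515%), with a median of 0% in WT and 30.1% (0 to 46.2) in KO, against 0% and 5.51% over all genes. A peak in WT only in mESCs together with one in KO only in MEFs was found at 20 members (29.9%) and at 110 genes in all, a background of 0.501%. A lower share in KO mESCs together with a higher share in KO MEFs was found at 34 members (50.7%, background 4.76%).

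**Figure D3:**
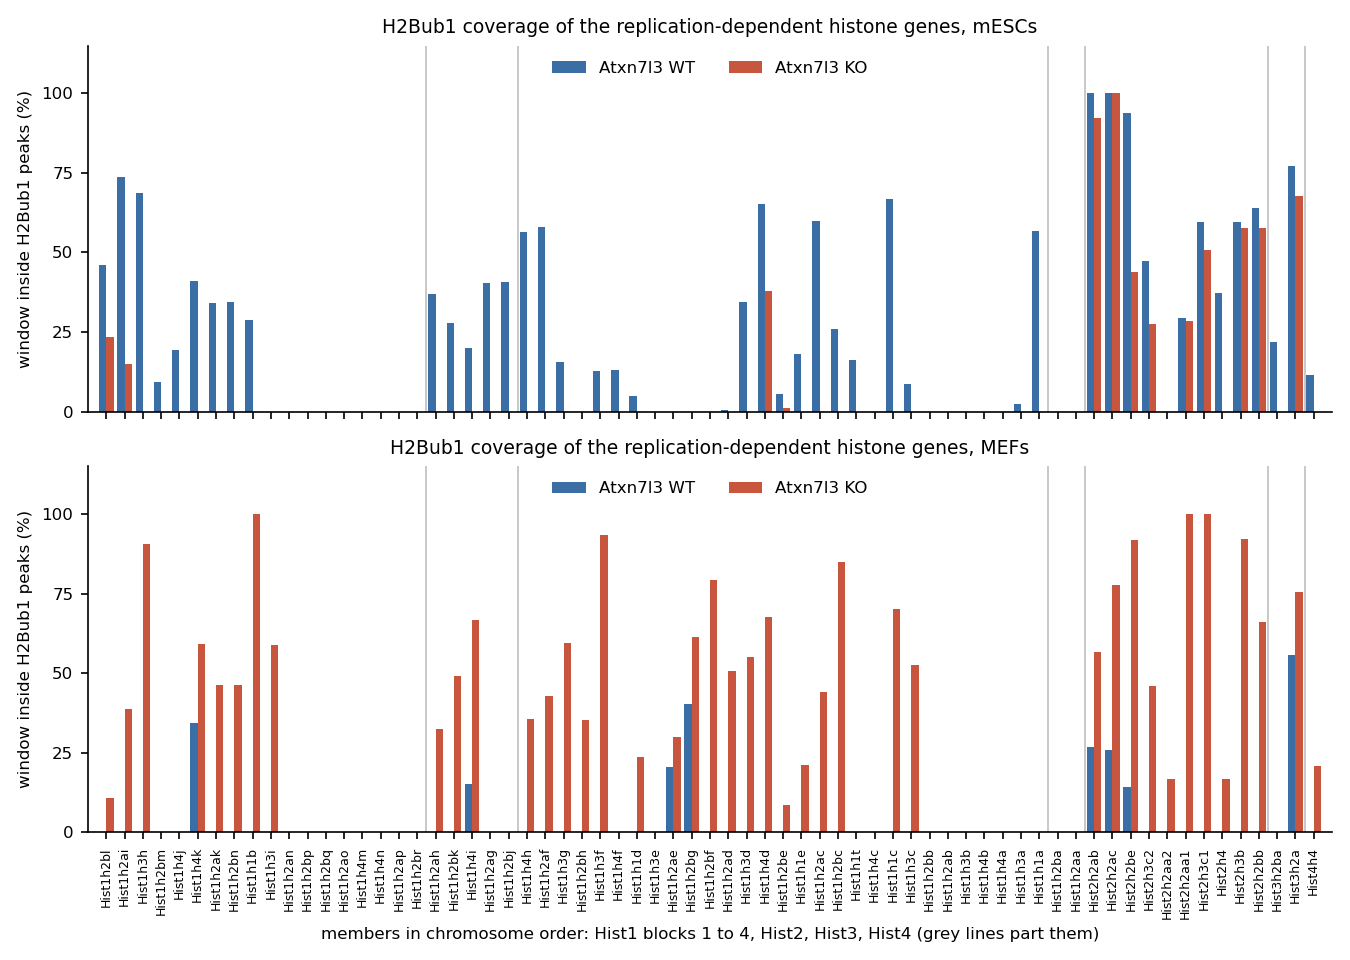
Share of each member's window inside H2Bub1 peaks (%), members in genomic order within Hist1 to Hist4, WT in blue and KO in red, mESCs above and MEFs below. In mESCs no member has a red bar above its blue bar, in MEFs no member has a blue bar above its red bar, and the red bars of mESCs stand mainly over Hist2 and Hist3h2a.

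The peaks behind these counts were modest in height. In WT mESCs 31 H2Bub1 peaks touched members, with a median fold of 3.13 against 2.69 in the whole list and a highest -log10 q of 10.2, and 13 of them had a -log10 q of at least 3. In KO mESCs 9 peaks touched members, with a median fold of 2.54 and 1 of them at that q. In MEFs 5 peaks of WT touched members, 0 of them at that q, and 23 of KO, 11 of them at that q. The MEF KO peaks were the widest, with a median of 3038 bp, against 2766 bp in their whole list, and a maximum of 9.34 kb.

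Of the 31 WT peaks at members in mESCs, 24 were overlapped by no KO peak, against 24.1% of the whole WT list. At the stricter -log10 q of 3 or more it was 8 of 13, against 2.84% of 5668. Those 8 were 4.97% of the 161 such peaks in the genome, and touched 10 members. The peak at Hist4h4 (chr6:136803901-136804466) had a fold of 4.17 and a -log10 q of 10.2, rank 2 by q of the 161. The peak at Hist1h1b (chr13:21779824-21780615) had a fold of 4.65 and a -log10 q of 7.93, rank 3. The peak at Hist1h1a, which reaches into the flank of Hist1h3a (chr13:23763325-23764879), had rank 9 and the one at Hist1h4i (chr13:22040705-22041252) rank 11. In MEFs 18 of the 23 KO peaks at members were overlapped by no WT peak, against 73.2% of the whole KO list.

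The clusters differed in mESCs. In Hist1, 32 of 54 members had H2Bub1 in WT mESCs and 4 in KO. The 4 were Hist1h2ai and Hist1h2bl, whose windows share 1 peak with a -log10 q of 1.17, and Hist1h4d and Hist1h2be, whose windows share 1 peak with a -log10 q of 1.65. In Hist2, 9 of 10 had it in WT and 8 in KO, and the median covered share was 59.5% in WT and 47.3% in KO. Of the 8, 7 had a lower share in KO and Hist2h2ac was at 100% in both. No test of this difference between the clusters is possible with 1 library per group, and only 5 KO peaks touch the windows of Hist2. In MEFs Hist1 had 4 members with H2Bub1 in WT and 29 in KO, and Hist2 3 in WT and 10 in KO, with a median share of 0% in WT and 71.9% in KO.

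Within Hist2, the window of the H2A gene Hist2h2ab (chr3:96219865-96220308) was covered to 100% (WT) and 92.1% (KO) in mESCs and to 26.8% and 56.6% in MEFs. Its neighbour Hist2h2ac was at 100%, 100%, 26.0% and 77.6%, and the H2B gene Hist2h2be, paired with Hist2h2ac, at 93.9%, 44.0%, 14.2% and 92.0%. These 3 were the members of Hist2 with H2Bub1 in all 4 libraries. The H3 genes Hist2h3c2, Hist2h3c1 and Hist2h3b had 47.3%, 59.5% and 59.5% in WT mESCs and 27.5%, 50.6% and 57.8% in KO mESCs. In MEFs they had 0% in WT and 46.1%, 100% and 92.2% in KO. Hist2h2aa1 had 29.6% and 28.3% in mESCs and 0% and 100% in MEFs, and Hist2h2bb 64.0% and 57.6%, then 0% and 66.1%. The exceptions were the H4 gene Hist2h4, which had 37.3% in WT mESCs but 0% in KO mESCs, and Hist2h2aa2, which had 0% in both. The window of Hist2h2aa2 holds only 35.7% unique words.

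**Figure D4:**
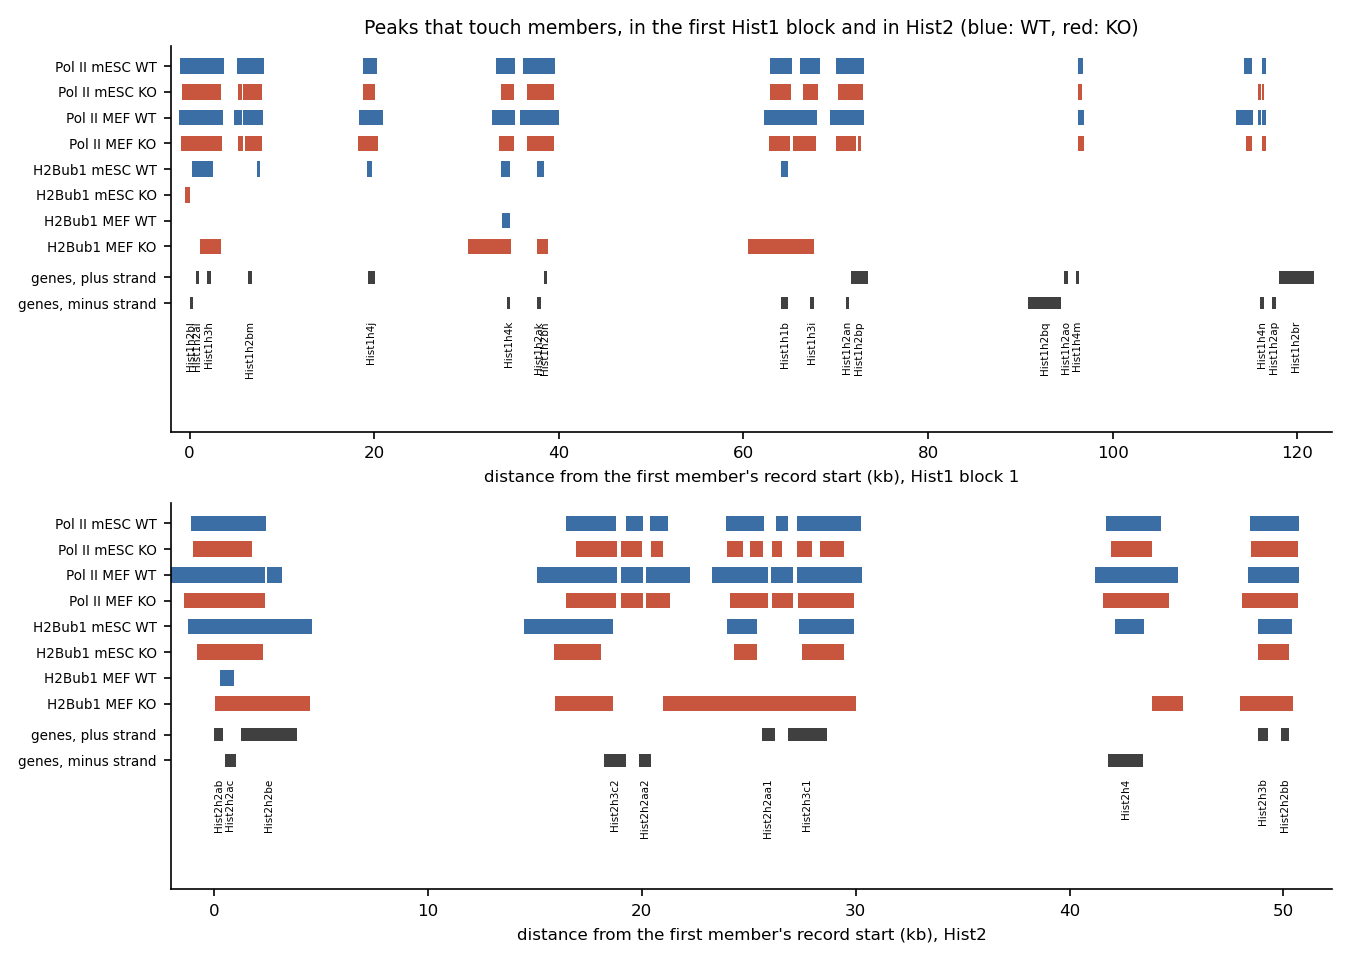
Peaks that touch members in the 8 libraries (rows) over the first Hist1 block and over Hist2, against the distance from the first member's record start (kb), with gene records by strand below, WT in blue and KO in red. Pol II bars recur in all 4 Pol II rows, while H2Bub1 of KO mESCs shows 1 peak in the first Hist1 block and 5 in Hist2.

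In Hist3, Hist3h2a (chr11:58954685-58956830) had H2Bub1 in all 4 libraries, over 77.0% (WT) and 67.8% (KO) of its window in mESCs and over 55.6% and 75.6% in MEFs. Its Pol II fold was 12 in WT and 6.42 in KO mESCs (log2 ratio -0.90) and 39.7 and 16.7 in MEFs (-1.25). Both Pol II values were lower in KO while H2Bub1 was lower in KO in mESCs and higher in KO in MEFs. Counted only within 1000 bp of the TSS, its covered share in mESCs was instead higher in KO, by 39.9 percentage points. Hist3h2ba had 21.9% in WT mESCs and 0% in the other 3 libraries. Hist4h4 (chr6:136801553-136804415), the only member of Hist4, had Pol II folds of 14.2 and 14.5 in mESCs and 24.0 and 24.8 in MEFs, and H2Bub1 over 11.6% and 0% of its window in mESCs and 0% and 21.0% in MEFs. It was therefore nearly level in Pol II and differed in H2Bub1.

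In Hist1 the largest differences in mESCs were those of Hist1h3h (68.8% in WT, 0% in KO), Hist1h1c (66.7% and 0%) and Hist1h2ac (60% and 0%). The WT peaks behind them had -log10 q values of 2.65, 3.17 and 1.74, so only that of Hist1h1c passes the stricter cut of 3. These genes had 0% in WT MEFs and 90.5%, 70.1% and 44.1% in KO MEFs. In mESCs the Pol II folds of Hist1h3h were 17.2 (WT) and 18.6 (KO) and those of Hist1h2ac 17.2 and 16.4, which are close in both genotypes, while Hist1h1c had 44.9 and 22.9. In MEFs the largest differences were those of Hist1h1b, Hist2h2aa1 and Hist2h3c1, each at 0% in WT and 100% in KO. The KO peak over Hist1h1b had a -log10 q of 2.21, below the stricter cut of 3. The windows of Hist2h2aa1 and Hist2h3c1 hold only 37.1% and 59.4% unique words. Hist1h1b had 28.9% and 0% in mESCs. The second Hist1 block, with 5 of 5 members covered in WT mESCs and 0 of 5 in KO, had 1 of 5 in WT MEFs and 3 of 5 in KO. There Hist1h2ag and Hist1h2bj had 40.5% and 40.9% in WT mESCs and 0% in the other 3 libraries.

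By class, H1 was the extreme in mESCs, with 6 of 6 genes covered in WT and 0 of 6 in KO. H2A had 11 and 5 of 18, H2B 10 and 4 of 18, H3 9 and 3 of 12 and H4 8 and 1 of 13. In MEFs H1 had 0 of 6 in WT and 4 of 6 in KO, H2A 4 and 12, H2B 2 and 10, H3 0 and 9 and H4 2 and 6. The direction was the same in each of the 5 classes within a cell type. All genes had 55.1% (WT) and 61.7% (KO) in mESCs, and 31.8% and 54.2% in MEFs, so the direction of MEFs was also that of all genes. In KO MEFs the H2B share of 55.6% was near that of all genes and the H4 share of 46.2% below it. H1 (66.7%), H2A (66.7%) and H3 (75%) were above it. H2Bub1 was found in none of the 4 libraries at 17 members (25.4%, background 32.1%), among them the duplicated end of the first Hist1 block and the testis variants Hist1h2ba and Hist1h2aa. Among the 21 members whose windows hold at least 90% unique words, 17 had H2Bub1 in WT and 4 in KO mESCs, and 3 and 12 in WT and KO MEFs, so both directions were also counted there.

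By distance from the start, with peaks of neighbours included, H2Bub1 of WT mESCs peaked just inside the TSS. At 200 to 360 bp downstream 46.3% of members were inside a peak, against a maximum of 32.0% of all genes at 370 bp. In KO mESCs the members reached 11.9% at 700 to 920 bp, past the end of the median record of 539 bp. All genes of KO mESCs reached 47.9% at 470 bp. In MEFs the members reached 8.96% in WT and 43.3% in KO, and all genes 12.3% and 46%. By segment, 58.2% of member records held a peak in WT mESCs and 13.4% in KO, against 53.6% and 60.8% of all genes. The 1000 bp upstream held one at 37.3% and 10.4% of members, against 20.5% and 40% of all genes. The 15 members with records over 1500 bp include Hist1h2be, an H2B gene whose record of 37455 bp runs over Hist1h1e, so its values take in that gene. The 12 head-to-head pairs of H2A and H2B genes, with starts 176 to 306 bp apart, showed how the marks cross the shared promoter. A Pol II peak spanned both starts in 9 of 12 pairs in each of the 4 libraries. An H2Bub1 peak spanned both in 5 of 12 in WT mESCs, 1 of 12 in KO mESCs, 0 of 12 in WT MEFs and 4 of 12 in KO MEFs. The 1 pair spanned in KO mESCs was Hist2h2ac and Hist2h2be.

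The testis variants had little signal of their own. Hist1h2aa and Hist1h2ba, whose promoter is printed above, had window Pol II folds of 4.12 (WT) and 3.94 (KO) in mESCs, no peak in MEFs and no H2Bub1. On the Hist1h2ba record itself the fold was 3.59 in WT mESCs, and no peak lay there in KO. The window of Hist1h1t, the testis H1, took its values of 17.7 and 12.9 in mESCs and 39.0 and 21.4 in MEFs from peaks that also touch its neighbour Hist1h4c. Its own separate peaks had folds of 3.19 in WT mESCs and 3.07 in KO MEFs, and H2Bub1 covered 16.2% of its window in WT mESCs alone.

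The comparison genes counted otherwise in mESCs. Of 1134 other protein-coding genes with records of at most 1500 bp, 211 had H2Bub1 in WT and 240 in KO mESCs, and 86 and 179 in MEFs. A Pol II peak touched only 13.5% of these short genes in WT mESCs. Of the 46 genes that reach the members' Pol II fold in mESCs, 46 had H2Bub1 in both genotypes, with a median covered share of 48.5% in WT and 65.7% in KO. Their share was higher in KO at 36 and lower at 8, and only 2 of the 46 had records of at most 1500 bp. The 49 other genes within the Hist1 span counted 3 in WT and 5 in KO mESCs. None of these 3 groups had fewer H2Bub1 calls in KO than in WT mESCs; this was not tested.

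**Figure D5:**
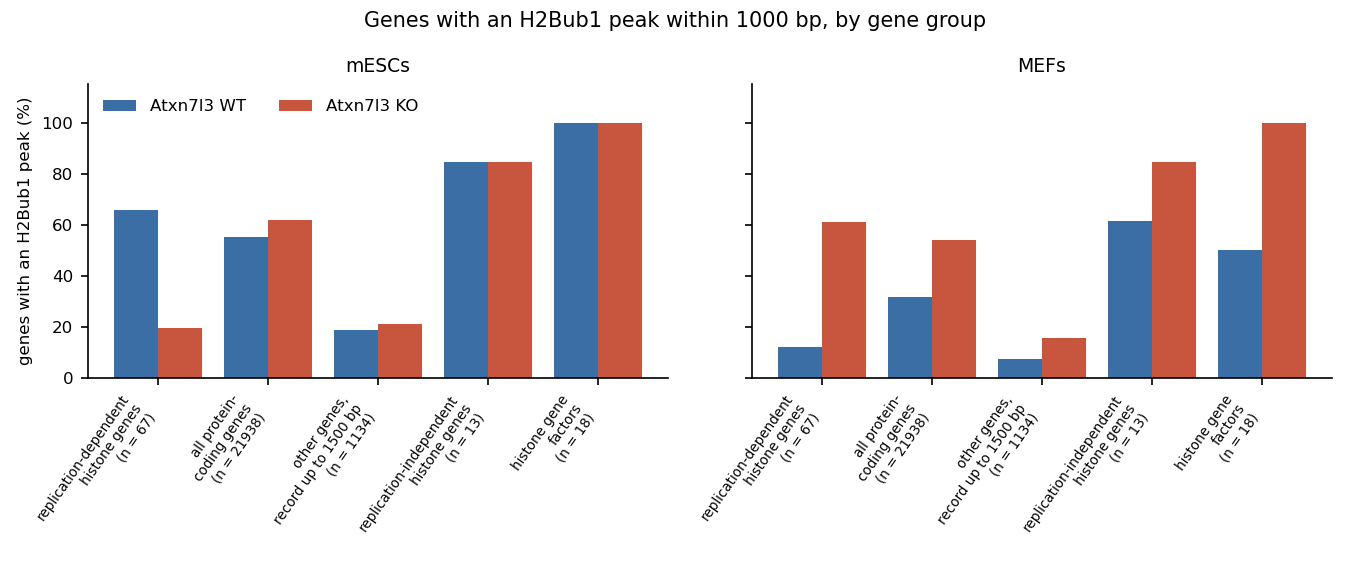
Share of genes with an H2Bub1 peak (%) in 5 gene groups with their sizes, WT in blue and KO in red, mESCs left and MEFs right. In mESCs the share of the replication-dependent histone genes is 65.7% in WT and 19.4% in KO, and no other group shown is lower in KO.

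The replication-independent histone genes, 13 in number, encode variants made throughout the cell cycle or in germ cells, and here 11 had H2Bub1 in both genotypes of mESCs, and 8 in WT and 11 in KO in MEFs. Their covered share was higher in KO mESCs at 7 and lower at 2, H3f3b (48.2% in WT, 15.4% in KO) and H1fx (87.0% and 75.4%). H3f3b, which encodes H3.3, had a Pol II fold of 19.4 in WT and 17.1 in KO mESCs, near the members' median. H2afx, a short gene whose message can also end in a stem-loop, had 100% covered in both and Pol II folds of 15.8 and 24.4. The germ cell genes H1foo and Hils1 had neither mark in any library.

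The 18 genes of factors that serve histone gene expression included Npat, Casp8ap2, Slbp, Lsm10 and Lsm11 of the histone locus body and processing machinery, and cyclin E and Cdk2, which activate NPAT. All 18 had H2Bub1 in both genotypes of mESCs, with a covered share higher in KO at 15 and lower at 3 (Coil, Ccne1 and Ccne2). In MEFs 9 had it in WT and 18 in KO, and 18 of 18 were higher in KO. Pol II touched 15 of 18 in each genotype of mESCs, with Cpsf3 in WT only and Cdk2 in KO only, and 18 of 18 in MEFs. The Pol II folds of Npat were 3.14 (WT) and 4.67 (KO) in mESCs and 17.4 and 9.09 in MEFs, and those of Slbp 8.42 and 12.5, then 25.1 and 19.1. The list as a whole was mixed in mESCs, where 7 of the 14 genes with Pol II in both genotypes had a lower fold in KO (50%, against 51.3% of all such genes). The median log2 ratio was -0.15, against -0.01 over all genes. In MEFs 12 of 18 had a lower fold in KO (66.7%, against 68.2%), with a median of -0.35 against -0.23. Both shares were thus near those of all genes.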

How the data were processed

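Peak lists of 8 ChIP-seq libraries, 1 per group, were analysed; inputs and Ser2P libraries were not analysed here. The authors mapped single-end reads of 50 bases with Bowtie (genome mm10) and ran MACS2 on each library, narrow for Pol II and broad for H2Bub1 (versions 1.0.0 and 2.1.1.20160309 in the submitters' processing notes). They normalised H2Bub1 over large intergenic regions and Pol II by mapped reads. How this entered the calls, the control and the thresholds are not given in the sources used here. The deposited fold is a linear ratio over the background estimated for the library, at the summit in narrow and as a mean in broad lists. Whether an input entered that background is not known. The -log10 p and -log10 q values are the authors' as well. The deposited display score and, beyond the alternatives, the deposited summit offset were not used. A library with more reads yields more and wider peaks, and depth is unknown.

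Peaks were set, as 1-based positions, against GENCODE M21 (GRCm38, the same build; 0 peaks ended beyond their chromosome). A member counted as called with at least 1 base of peak in its record with 1000 bp on either side. Word uniqueness came from exact 50-base matches on both strands. RefSeq entries were matched by symbol or synonym and overlap. GENCODE and RefSeq starts differed by at most 10 bp at 29 of 62 members. Medians carry exact binomial intervals. Members named are those of Hist2, Hist3 and Hist4, the 3 testis variants, the top 3 by Pol II fold per library, those with Pol II in 1 genotype, and the 3 most changed each way per cell type and mark; others were chosen after their values were seen. The members, lists and rules were chosen with earlier results of these data known. The planned comparison of H2B proteins was not made. Scripts were tested on simulated data. Python 3.11.15, numpy 2.4.6, pandas 2.3.3, scipy 1.17.1, numba 0.67.0 and matplotlib 3.10.9 were used.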

Additional observations from a re-analysis of the deposited data

Results flagged for a closer look

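The difference between KO and WT in H2Bub1 at the replication-dependent histone genes ran in opposite directions in mESCs and MEFs, which marked it for a closer look. The median covered share of the window differed by -16.2 percentage points (KO minus WT) in mESCs and by 30.1 in MEFs. With peaks of -log10 q of at least 3 alone, the medians were 0% in every library and these differences were gone. The share of members with a peak differed by -46.3 percentage points in mESCs and by 49.3 in MEFs, while over all genes it was 55.1% (WT) and 61.7% (KO) in mESCs and 31.8% and 54.2% in MEFs. With 1 library per group the difference between the cell types was not tested.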

How the results depend on the processing

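Over 10 alternatives, 188 values of the comparisons were recomputed. Of these, 169 stayed within 1.5 times the reported value or, for medians, within its 95% interval, and 19 moved further. The median log2 Pol II ratios stayed below 0, at -0.46 to -0.16 in mESCs and -0.54 to -0.44 in MEFs. The other values are shares that cannot be negative, and whether KO stayed above or below WT was not scored for them. The widest change within that tolerance in Pol II presence was by summit, at 74.6% (WT) and 80.6% (KO) of members in mESCs and 67.2% and 74.6% in MEFs. With only peaks of -log10 q of at least 3, 26.9% (WT) and 1.49% (KO) of members had H2Bub1 in mESCs and 0% and 29.9% in MEFs (all genes 22.2%, 45%, 5.87% and 49.1%), the median shares in WT mESCs and in KO MEFs were both 0%, so that neither median differed between genotypes, and the share was lower in KO mESCs at 26.9% and higher in KO MEFs at 29.9% of members. Pol II in WT only in mESCs was 4.48% of members in the record alone, 2.99% in the window around the TSS, 4.76% among the 21 members with unique words, 2.94% by stretch and 2.99% by summit, and in MEFs 4.76% with unique words, 2.94% by stretch and 8.96% by summit. Pol II in KO only by summit was 8.96% in mESCs (all genes 5.02%) and 16.4% in MEFs (1.69%). The median log2 Pol II ratio of mESCs was -0.46 among members with unique words. Around the TSS 1.49% of members had a higher share in KO mESCs. Of 507 values of named members 424 stayed within 1.5 times, 81 moved further and 2 reversed: Hist3h2a in mESCs, with a share 39.9 points higher in KO around the TSS, and Hist1h3a in mESCs, with a log2 Pol II ratio of -0.74 in the record alone. The causes were not tested. No paired analysis was possible because each group has 1 library. Depth is unknown and limits the counts of weak peaks.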
